A study of Homo sapiens with 6 samples.

Results

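SR proteins and heterogeneous nuclear ribonucleoproteins (hnRNPs) are the abundant nuclear proteins that coat new transcripts and set which exons are kept. SR proteins carry an arginine and serine rich domain and mostly promote the use of exons, hnRNPs often block it, and which of them dominates depends on where on the transcript they bind. Many of these genes regulate their own RNA and that of their paralogs, commonly through exons whose inclusion sends the transcript to nonsense-mediated decay. The genes described here are the protein-coding genes named SRSF or HNRNP with a number or letters, together with the SR-like genes TRA2A and TRA2B and the polypyrimidine tract binding genes PTBP1, PTBP2 and PTBP3. This rule found 41 genes among the 58884 in the count table: 24 hnRNP genes, 12 SR genes, 3 PTBP genes and 2 TRA2 genes.

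RNA was sequenced from DLD1 parental cells and from DLD1 p85β KR-AA cells in 3 libraries each. DLD1 is a human colorectal cancer cell line, and both groups share its background, including the helical domain mutation in PIK3CA that the parental line carries. The p85β KR-AA cells had the K477A and R478A changes, within a nuclear localization sequence, knocked into PIK3R2, the gene for p85β. The study made independent knock-in clones, and the labels do not say which clone a library came from. The source name of p85β KR-AA replicate 2 gives K477A with R479A and that of replicate 3 gives K477A with R480A, while their genotype is K477A and R478A. The labels do not say that the libraries of a group came from separate cultures, so the p-values measure only the spread between these libraries, which may be technical.

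The libraries held between 20301396 and 26712816 estimated counts. Levels are given as CPM, counts relative to a library size that was scaled with TMM (trimmed mean of M values), a scaling that assumes most genes to change little. TMM factors were 0.677 to 0.777 in the parental libraries and 1.35 to 1.41 in the p85β KR-AA libraries, so library totals alone moved the median log2 fold change of all tested genes from 0.32 to 1.241, a shift of 0.92. The groups also differed in cell type markers. The summed level of 12 colon epithelium markers was 57230 to 79260 CPM in parental cells and 8813 to 10310 CPM in p85β KR-AA cells, most of it from the keratins KRT8, KRT18 and KRT19, and CDX1 was near 0 in all 6 libraries. The summed level of 12 mesenchymal markers was 4.08 to 5.91 CPM and 1737 to 1872 CPM, nearly all of the latter from VIM. PDGFRA was at 0 throughout, and TWIST1, THY1 and COL1A2 were at most at 0.332 CPM in any library. None of these was tested. All 8 mesenchymal markers tested rose, and 6 did so by at least 3-fold: VIM, ZEB2, LUM, COL3A1, DCN and ZEB1. Apart from VIM, these were at 0 in every parental library. They passed the filter on low counts only through the p85β KR-AA libraries, and so could only come out higher. Their means in p85β KR-AA cells ran from 1.32 CPM (ZEB1) to 15.6 CPM (ZEB2). Of the 11 colon markers tested, 6 fell and 2 rose by at least 3-fold, the latter CDH1 and CDH17. CDH1, the epithelial cadherin, was at 60.1 to 125.9 CPM and 330.6 to 367.1 CPM (log2 fold change 1.82, edgeR adjusted p = 5.41e-06). Markers of neurons summed to 520.3 to 607.7 CPM and 344.5 to 365.8 CPM, with DCX and ELAVL4 at 0. In the parental libraries this sum was nearly all TUBB3, which was at 519.8 to 607.4 CPM there and at 204.0 to 224.1 CPM in p85β KR-AA cells. The other 4 of the 5 neuron markers tested, NEFL, SYT1, NEFM and GAP43, rose by at least 3-fold. NEFL was at 130.2 to 133.8 CPM in p85β KR-AA cells. NEFL, NEFM and GAP43 were at 0 in all parental libraries and passed the filter only through the p85β KR-AA libraries. Blood cell markers stayed at 4.25 to 7.14 CPM in all libraries, with PTPRC near 0. Their part in the results was not tested, and in bulk RNA fewer cells of a type and less RNA per cell cannot be told apart.

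Of the 41 genes, 38 passed the filter on low counts and were tested among 16059 genes with edgeR's quasi-likelihood test. A call needed an adjusted p under 0.01 (Benjamini-Hochberg over all tested genes). With a change of at least 3-fold as well, 4 genes rose (PTBP3, PTBP2, SRSF11 and TRA2A) and 0 fell, 10.5% of the 38. Over all tested genes, 46.2% passed this rule, 28.6% higher and 17.6% lower. The count at 3-fold depended on the scaling. On library totals 9 were higher and 0 lower, beside 7052 higher and 973 lower among all 16059 tested genes. Length and GC offsets remove the relation of counts with gene length and base composition, and also take the place of the TMM factors. They shifted the median log2 fold change of all tested genes by −0.47, and with them 0 were higher and 11 lower. Among all 15902 genes tested with the offsets, 2121 were higher and 1928 lower. With DESeq2 3 were higher and 3 lower, beside 4202 and 3094 of all 16059. At any size of change, 11 rose and 11 fell, together 57.9% of the 38, against 74.3% of all tested genes (41.6% higher and 32.7% lower). This split moved too: on library totals 23 of the 38 were called higher and 4 lower, and with length and GC offsets 2 were called higher and 25 lower. At any size of change, all tested genes were counted with TMM only. The sign of 15 genes on library totals and of 13 with the offsets was the opposite of that with TMM, which included 5 and 6 of the 22 called genes. Of the 38, 24 (63.2%) were within 2-fold, against 34.9% of all tested genes.

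The median log2 fold change of the 38 was −0.24, beside 0.32 for all tested genes, a gap of −0.56. On library totals both medians shifted and the gap was again −0.56, with 14 of the 38 above the median of all genes and 24 below it under either scaling. A change of library scaling moves all genes by nearly the same amount, so it could hardly change this gap. With the length and GC offsets the gap was −0.63. It depended on the filter: with at least 10 counts in every library it was −0.21, with 17 genes above the median and 20 below. Without a filter it was −0.94, with 9 above and 29 below. All 3 p85β KR-AA libraries lay above all 3 parental libraries for 13 of the 38 and below them for 12, a separation seen in 83.4% of all tested genes (47% above and 36.5% below). The other 13 overlapped.

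**Figure D1:**
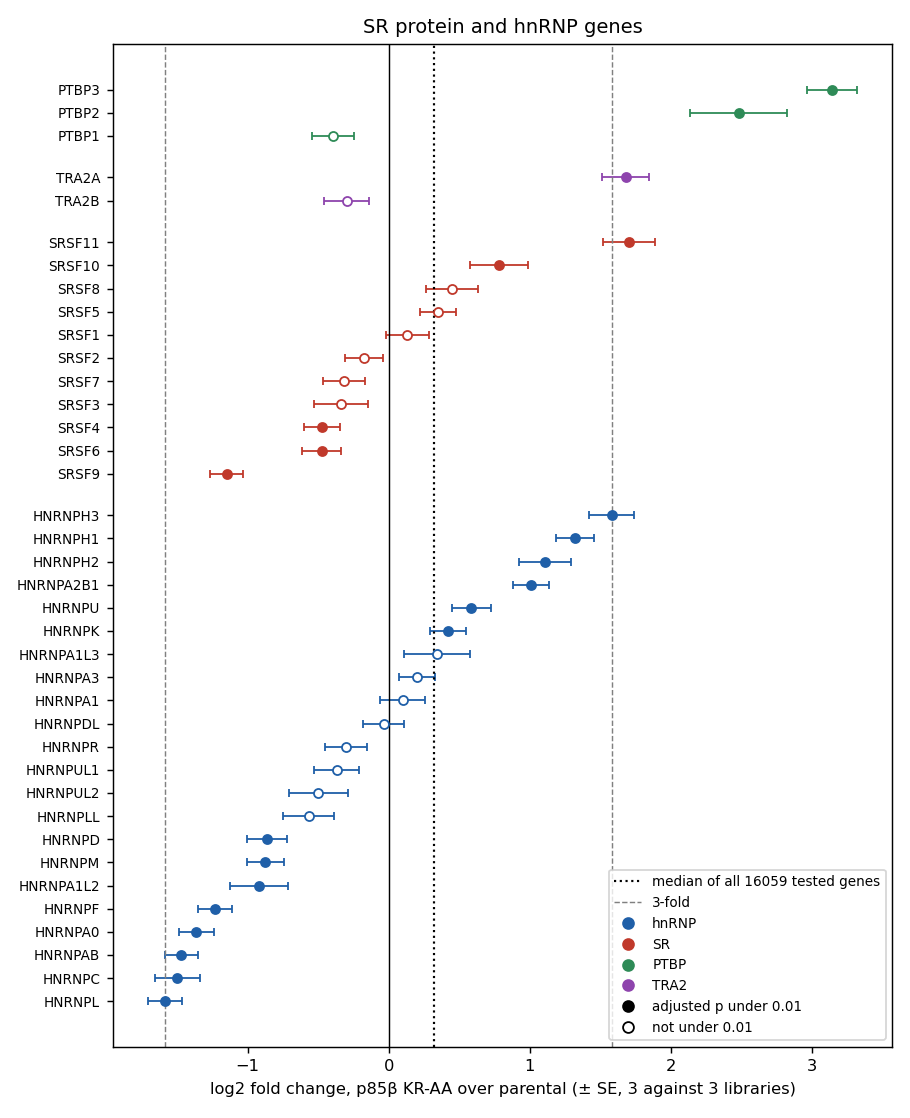
Log2 fold change (horizontal axis, p85β KR-AA over parental on the TMM scale, bars are SE) of the 38 tested genes, grouped by family. Filled points passed an adjusted p under 0.01, and only 4 points lie beyond the upper 3-fold line while HNRNPL, at −1.58, lies on the lower one; 15 genes change sign on library totals and 13 with length and GC offsets.

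HNRNPCL1 and HNRNPCL2, retrogenes of HNRNPC, had 0 counts in all 6 libraries, which allows up to 0.0818 to 0.218 CPM at a limit of 3 counts per library. SRSF12 had 0 counts in every parental library and 4, 4 and 5 counts in p85β KR-AA replicates 1 to 3. These limits cover counting error only. These 3 genes were not tested.

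The PTBP genes moved apart. PTBP1 represses many exons in most cell types, PTBP2 is its neuronal paralog, and PTBP3 is a paralog known from blood cells. On the TMM scale PTBP3 and PTBP2 had the largest log2 fold changes of the 38 tested genes, and PTBP1, the most abundant of the 3, was not called. With length and GC offsets the largest was that of HNRNPA0 (−4.18). The 250 bases upstream of a RefSeq transcript start of each gene (RefSeq, GRCh38.p14) are printed to show that the start regions of these 3 paralogs differ in their content of CG dinucleotides, which are in capitals. PTBP1 has a pair of listed starts on chromosome 19, plus strand, at chr19:797202-797451 and chr19:797734-797983. PTBP2 starts on chromosome 1, plus strand, with the window chr1:96722388-96722637, and PTBP3 on chromosome 9, minus strand, with the window chr9:112333027-112333276.
PTBP1, first start: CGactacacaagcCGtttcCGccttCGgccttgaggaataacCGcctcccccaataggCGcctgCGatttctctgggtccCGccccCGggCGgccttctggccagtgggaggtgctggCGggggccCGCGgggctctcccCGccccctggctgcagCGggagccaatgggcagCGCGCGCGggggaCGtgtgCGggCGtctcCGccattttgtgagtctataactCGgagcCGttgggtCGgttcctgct
PTBP1, other start: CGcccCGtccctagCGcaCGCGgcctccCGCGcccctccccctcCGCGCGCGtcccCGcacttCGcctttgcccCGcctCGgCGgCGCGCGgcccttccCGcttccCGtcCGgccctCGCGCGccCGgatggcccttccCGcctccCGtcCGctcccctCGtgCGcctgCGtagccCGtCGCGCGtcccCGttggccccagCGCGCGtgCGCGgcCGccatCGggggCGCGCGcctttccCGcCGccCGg
PTBP2: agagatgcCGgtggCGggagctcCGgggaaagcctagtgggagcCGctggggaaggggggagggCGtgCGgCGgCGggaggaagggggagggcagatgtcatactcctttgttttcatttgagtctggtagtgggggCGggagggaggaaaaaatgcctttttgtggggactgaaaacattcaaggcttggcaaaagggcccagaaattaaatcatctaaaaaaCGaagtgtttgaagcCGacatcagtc
PTBP3: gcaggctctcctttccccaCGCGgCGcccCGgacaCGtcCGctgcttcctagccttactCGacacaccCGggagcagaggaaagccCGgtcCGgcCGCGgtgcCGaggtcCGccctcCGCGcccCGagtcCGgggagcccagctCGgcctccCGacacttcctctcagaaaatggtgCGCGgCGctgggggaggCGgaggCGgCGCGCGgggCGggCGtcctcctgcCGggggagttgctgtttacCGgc
CG was counted as these 2 letters, which read the same on both strands. The PTBP2 window holds 11 CG and is 55.2% GC, the PTBP1 windows hold 26 and 50, and the PTBP3 window holds 32. Across the 35116 RefSeq windows of this length the median was 11, and 93.9% held at least 1. The 52 windows of the 37 listed genes that matched had a median of 24, and HNRNPA1, HNRNPA1L3, SRSF2 and TRA2A had none listed. These letters are a description of the windows and say nothing of binding or methylation.

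PTBP3 was at 11.1, 9.61 and 12.4 CPM in parental replicates 1 to 3 and at 107.1, 108.0 and 78.0 CPM in p85β KR-AA replicates 1 to 3. The groups did not come near each other. PTBP3 rose 8.84-fold (log2 fold change 3.14 ± 0.18 SE, n = 3 per group, edgeR adjusted p = 9.77e-09). PTBP2 was at 0.531, 0.583 and 0.493 CPM in the parental libraries, which is 8 counts in each, and at 3.41, 3.48 and 2.11 CPM (125, 100 and 58 counts) in p85β KR-AA libraries. Both groups were low, but apart. PTBP2 rose 5.59-fold (log2 fold change 2.48 ± 0.34, edgeR adjusted p = 2.1e-05). PTBP1 was at 489.2, 344.6 and 454.1 CPM in parental cells and at 318.6, 303.9 and 357.6 CPM in p85β KR-AA cells. The groups overlapped, because parental replicate 2 was lower than p85β KR-AA replicate 3. PTBP1 was not called (log2 fold change −0.39 ± 0.15, edgeR adjusted p = 0.0252). It passed without parental replicate 2, and was called lower with DESeq2 (−0.51, adjusted p = 0.00377) and with its size factors in edgeR (−0.51, adjusted p = 0.00877). It was at 0.52 on library totals and 0.14 with length and GC offsets, not called in either.

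Per kilobase, PTBP1 made up 98.7% of the summed PTBP level in parental cells (mean of 3 libraries) and 86.9% in p85β KR-AA cells. The share of PTBP3 went from 1.18% to 12.1%, and that of PTBP2 from 0.153% to 0.975%. PTBP1 thus stayed the major gene in all 6 libraries. A ratio of 2 genes within a library does not depend on how libraries are scaled. The log2 ratio of PTBP3 to PTBP1 was −5.27 ± 0.16 (SD, n = 3) in parental and −1.75 ± 0.39 in the p85β KR-AA libraries, a difference of 3.52 or 11.4-fold (exact two-sided permutation test, p = 0.1). That of PTBP2 to PTBP1 went from −9.55 ± 0.37 to −6.79 ± 0.52, a difference of 2.76 or 6.75-fold (exact permutation p = 0.1). With 3 libraries against 3 the exact permutation test cannot give less than 0.1, the value it takes here where the groups did not overlap. Both differences were smaller with length and GC offsets, at 0.27 and 0.68, where PTBP3 rose by 0.40 (edgeR adjusted p = 0.00936) and PTBP2 did not pass (0.92, edgeR adjusted p = 0.0139). The PTBP3 and PTBP2 transcripts are 36.6% and 37.1% GC and that of PTBP1 is 59.4% GC. Gene lengths are 7995, 3057 and 3691 bases for PTBP3, PTBP2 and PTBP1.

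TRA2A and TRA2B are SR-like activators that bind purine-rich exons. TRA2A was at 12.6, 15 and 15.1 CPM in parental cells and at 44.8, 52.3 and 39.6 CPM in p85β KR-AA cells. All 3 p85β KR-AA libraries were well above the parental ones. TRA2A rose 3.20-fold (log2 fold change 1.68 ± 0.17, edgeR adjusted p = 9.27e-07), also with the length and GC offsets (0.63, adjusted p = 0.000333). TRA2B was at 75.1, 110.5 and 108.2 CPM in parental and at 84.7, 84.1 and 70.1 CPM in p85β KR-AA libraries. Parental replicate 1 lay among the p85β KR-AA libraries. TRA2B was not called (log2 fold change −0.30 ± 0.16, edgeR adjusted p = 0.104), but passed without parental replicate 1 and was higher, at 0.63, on library totals. With length and GC offsets it was lower, at −2.22 (edgeR adjusted p = 1.11e-08).

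The 2 TRA2 genes changed places per kilobase. TRA2A was 25.6% of their summed level in parental cells and 57.2% in p85β KR-AA cells, and TRA2B was 74.4% and 42.8%. TRA2A was the higher gene in each p85β KR-AA library and the lower one in each parental library. The log2 ratio of TRA2A to TRA2B counts went from −2.76 ± 0.16 to −0.81 ± 0.12, a difference of 1.96 or 3.88-fold (exact permutation p = 0.1). Both transcripts are 41% GC, and the gene lengths differ, at 1785 bases for TRA2A and 4178 for TRA2B. With length and GC offsets the difference was 2.85, in the same direction.

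**Figure D2:**
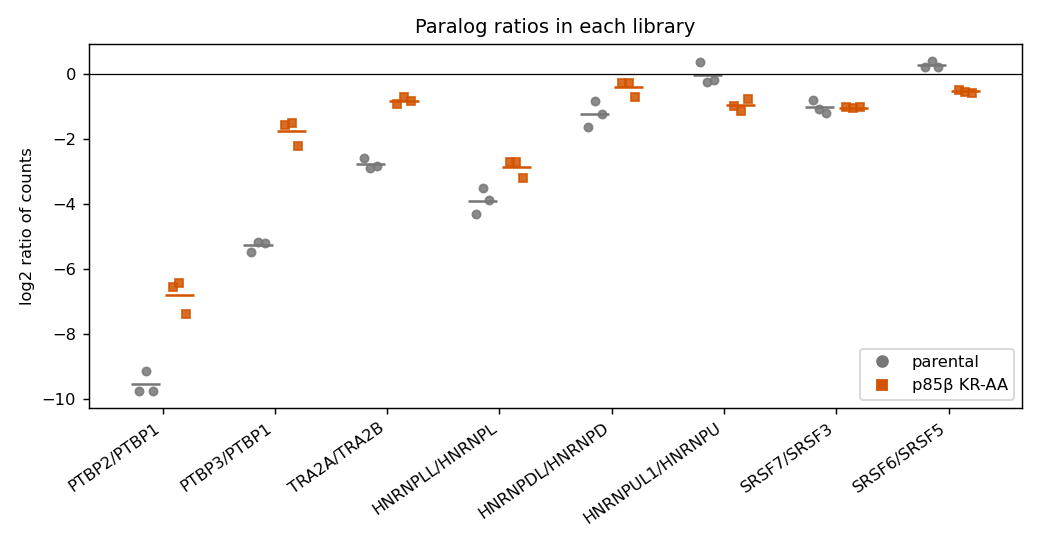
Log2 ratio of the counts of 8 pairs of related genes (vertical axis) in each parental library (circles) and p85β KR-AA library (squares), with lines at the means. The 3 ratios on the left differ the most between groups (2.76, 3.52 and 1.96), and SRSF7/SRSF3 overlaps.

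Among the SR genes, 2 of 11 tested rose, 3 fell and 6 did not pass, with a median log2 fold change of −0.17. SRSF11, a U1 and U2AF partner, and SRSF10, an SR protein that acts as a repressor when dephosphorylated, rose on the TMM scale and on library totals, and both were slightly below 0 with length and GC offsets. SRSF11 was at 16.8, 23.2 and 21.6 CPM in parental cells and at 70.1, 77.9 and 52.6 CPM in p85β KR-AA cells. The lowest p85β KR-AA library was above the highest parental one. SRSF11 rose 3.26-fold (log2 fold change 1.70 ± 0.18, edgeR adjusted p = 2.07e-06), and its value with the offsets was −0.13. SRSF10 rose by less (0.78 ± 0.21, edgeR adjusted p = 0.00359), and lost its call when parental replicate 1, parental replicate 3 or p85β KR-AA replicate 2 was left out.

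SRSF9, a small SR protein, was the most abundant SR gene per kilobase in both groups. It was at 292.7, 286.2 and 321.7 CPM in parental cells and at 137.4, 132.6 and 136.2 CPM in p85β KR-AA cells. The replicates of each group were tight and the groups far apart. SRSF9 fell 2.22-fold (log2 fold change −1.15 ± 0.12, edgeR adjusted p = 1.42e-06), which was not called on library totals. Its share of the summed SR level per kilobase was 44.9% and 26.4%. SRSF9 overlaps DYNLL1 on the opposite strand, whose mean count was 4840.3 and 3009.7, and the labels do not say that counting used the strand.

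SRSF6 and SRSF4 are larger SR proteins with a pair of RNA recognition motifs, as is SRSF5. SRSF6 was at 91.8, 119.3 and 106.7 CPM in parental and 81.0, 79.0 and 68.9 CPM in p85β KR-AA libraries (log2 fold change −0.47 ± 0.14, edgeR adjusted p = 0.00674). SRSF4 had the same size of change (−0.47 ± 0.13, edgeR adjusted p = 0.00422). On library totals SRSF6 was called higher (0.46, edgeR adjusted p = 0.00999), and SRSF4 was above 0 but not called (0.45, edgeR adjusted p = 0.0118). Both calls with TMM were lost when single libraries were left out. That of SRSF6 was lost without parental replicate 3 or any 1 p85β KR-AA library, and that of SRSF4 without p85β KR-AA replicate 1 or 2. SRSF5 was at 78.2, 89.0 and 92.1 CPM and at 113.5, 115.1 and 101.7 CPM. The groups were apart, but SRSF5 did not pass (0.35 ± 0.13, edgeR adjusted p = 0.022). The log2 ratio of SRSF6 to SRSF5 went from 0.29 ± 0.12 to −0.53 ± 0.040, a difference of −0.82 (exact permutation p = 0.1).

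SRSF3, the smallest SR protein, and its close relative SRSF7 both bind pyrimidine-rich or GA-rich RNA and couple splicing to export. SRSF3 was at 115.1, 183.4 and 209.1 CPM in parental cells and at 138.5, 144.2 and 118.9 CPM in p85β KR-AA cells. SRSF7 was at 66.2, 88.0 and 91.1 CPM and at 68.6, 69.7 and 58.6 CPM. For both, parental replicate 1 was the low parental library and the groups overlapped. Neither was called (log2 fold change −0.34 ± 0.19 and −0.32 ± 0.15, edgeR adjusted p = 0.117 and 0.0683), and both passed without parental replicate 1. With length and GC offsets both were called lower (−2.30 and −1.63, edgeR adjusted p = 5.46e-08 and 5.5e-08), and on library totals SRSF7 was called higher (0.61, edgeR adjusted p = 0.00544) and SRSF3 was at 0.58, not called. Their log2 ratio was −1.02 ± 0.20 in parental and −1.03 ± 0.018 in the p85β KR-AA libraries (exact permutation p = 1).

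SRSF1, the founding SR protein, and SRSF2, which binds both purine-rich and pyrimidine-rich exonic motifs, were not called (0.13 ± 0.15 and −0.17 ± 0.13, edgeR adjusted p = 0.428 and 0.233), nor was SRSF8, a retrogene of SRSF2 (0.45 ± 0.19, edgeR adjusted p = 0.0402). SRSF1 is uncertain, since the same strand holds an overlapping protein-coding gene without a symbol whose mean count was 172.2 in parental and 2457.9 in p85β KR-AA cells. With the counts of both summed, an alternative chosen after seeing the data, the log2 fold change was 0.86 (edgeR adjusted p = 0.00017).

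Of the 22 hnRNP genes tested, 6 rose, 8 fell and 8 did not pass, and the median log2 fold change was −0.34. By edgeR on the TMM scale 0 of the 22 passed the 3-fold rule, with 14 past the adjusted p alone, and HNRNPH3 at 2.99-fold higher and HNRNPL at 2.998-fold lower came close to it. Summed over the 24 genes, hnRNP RNA was 7329 to 7480 CPM in parental and 5269 to 5441 CPM in p85β KR-AA libraries. All 41 genes summed to 8893 to 9276 CPM in parental and 6665 to 6954 CPM in p85β KR-AA libraries. As a share of all counts, without TMM, the direction for these 41 was the other way. They took 0.604% to 0.720% of the counts in parental and 0.901% to 0.979% in the p85β KR-AA libraries.

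HNRNPC, which binds uridine tracts and packages new transcripts, had the highest parental level per kilobase of the 24. It was at 1400, 2153 and 1537 CPM in parental cells and at 603.3, 592.8 and 605.1 CPM in p85β KR-AA cells. Parental replicate 2 was the highest, and every parental library was far above the p85β KR-AA ones. HNRNPC fell 2.83-fold (log2 fold change −1.50 ± 0.16, edgeR adjusted p = 2.01e-06). HNRNPA1, a repressor of many exons that binds UAG motifs, was at 1291, 810.9 and 1126 CPM and at 1179, 1144 and 1139 CPM. Parental replicate 2 was here the lowest, and the groups overlapped. HNRNPA1 was not called (0.10 ± 0.16, edgeR adjusted p = 0.569) and is named with its values because of its rank. Per kilobase HNRNPC was 35.9% of the summed hnRNP level in parental cells and 19.2% in p85β KR-AA cells, and HNRNPA1 was 17.1% and 27.5%. HNRNPA1 has 74 annotated pseudogenes, which held between 0.192% and 0.361% of its own counts in each library.

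HNRNPL and its paralog HNRNPLL bind CA repeats. HNRNPL was at 780.6, 716.6 and 769.0 CPM in parental cells and at 245.9, 240.6 and 269.5 CPM in p85β KR-AA cells. The replicates of each group were close to each other and the groups were far apart. HNRNPL fell 2.998-fold (log2 fold change −1.58 ± 0.12, edgeR adjusted p = 9.14e-08), just inside the 3-fold line. HNRNPLL was at 39.7, 63.1 and 52.4 CPM and at 38.1, 37.01 and 29.6 CPM. Its groups touched without overlapping, and it did not pass (−0.57 ± 0.18, edgeR adjusted p = 0.0111), but did without parental replicate 1. Their log2 ratio went from −3.89 ± 0.40 to −2.86 ± 0.28, a difference of 1.03 (exact permutation p = 0.1), which was −0.085 with length and GC offsets.

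HNRNPD, also known as AUF1, binds AU-rich RNA, and HNRNPDL is its paralog. HNRNPD was at 315.1, 228.7 and 282.7 CPM in parental and at 140.6, 154.8 and 158.8 CPM in p85β KR-AA libraries, with no overlap. HNRNPD fell 1.82-fold (log2 fold change −0.86 ± 0.14, edgeR adjusted p = 8.98e-05), and was at 0.055 on library totals and −2.36 with length and GC offsets. HNRNPDL was at 102.1, 129.6 and 121.8 CPM and at 117.7, 129.2 and 98.0 CPM. The groups lay on top of each other, and HNRNPDL was not called (−0.035 ± 0.14, edgeR adjusted p = 0.829). The log2 ratio of HNRNPDL to HNRNPD went from −1.22 ± 0.40 to −0.40 ± 0.25, a difference of 0.82 (exact permutation p = 0.1), which was 2.72 with length and GC offsets.

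HNRNPU, a scaffold attachment factor of chromatin, was at 257.8, 254.9 and 334.5 CPM in parental cells and at 415.3, 451.2 and 405.4 CPM in p85β KR-AA cells. It rose 1.501-fold (log2 fold change 0.59 ± 0.14, edgeR adjusted p = 0.00162), and fell with length and GC offsets (−1.94). HNRNPUL1, its paralog, was at 334.2, 215.7 and 295.4 CPM and at 209.5, 207.4 and 237.6 CPM. Parental replicate 2 was among the p85β KR-AA libraries. HNRNPUL1 was not called (−0.37 ± 0.16, edgeR adjusted p = 0.0465) and passed without parental replicate 2. Their log2 ratio, HNRNPUL1 to HNRNPU, went from −0.015 ± 0.34 to −0.96 ± 0.18, a difference of −0.94 (exact permutation p = 0.1), which was 1.39 with length and GC offsets. HNRNPUL1 overlaps TGFB1 and HNRNPU overlaps COX20 on the opposite strand. Mean counts of TGFB1 and COX20 were 4866.7 and 448.2 in parental and 2267.7 and 1027.2 in p85β KR-AA cells.

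**Figure D3:**
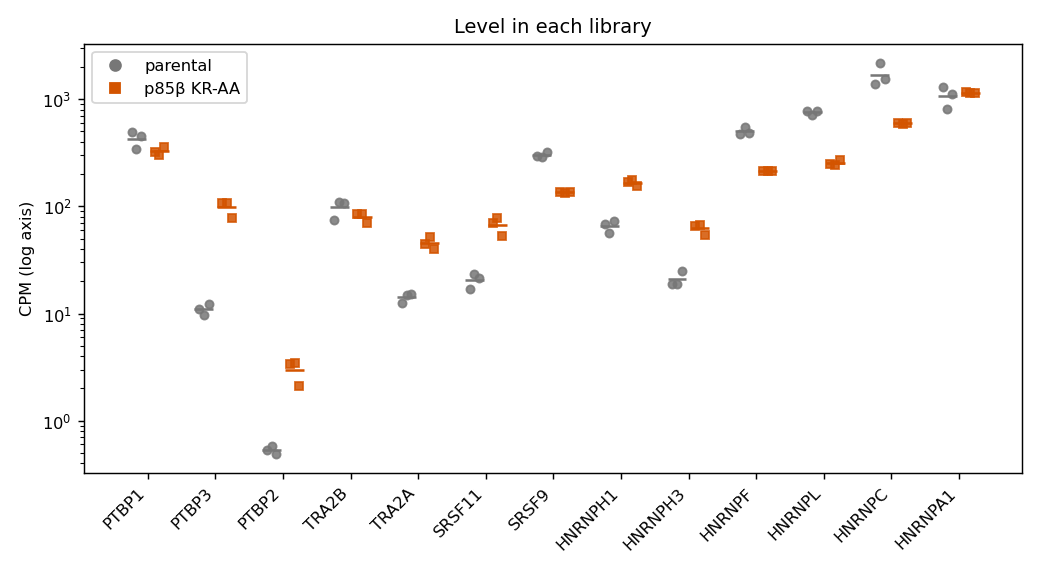
Level (CPM, log axis, vertical) of 13 of the genes in each parental library (circles) and p85β KR-AA library (squares), with lines at the means. PTBP3, PTBP2, TRA2A, SRSF11, HNRNPH1 and HNRNPH3 sit higher in p85β KR-AA on this TMM scale, but of these only PTBP3 and TRA2A keep their call with length and GC offsets, and SRSF11 is below 0 there; SRSF9, HNRNPF, HNRNPL and HNRNPC sit lower, and PTBP1, TRA2B and HNRNPA1 overlap.

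The hnRNP F/H genes bind G tracts and divided by member. HNRNPH3, HNRNPH1 and HNRNPH2 rose (1.58 ± 0.16, 1.32 ± 0.14 and 1.11 ± 0.19, edgeR adjusted p = 1.33e-06, 1.33e-06 and 0.000111), and HNRNPF fell (−1.23 ± 0.12, edgeR adjusted p = 9.6e-07). On library totals HNRNPF was not called, and with length and GC offsets the 3 others were not called and HNRNPH2 was at −0.091. HNRNPH1 was at 68.2, 56.95 and 72.9 CPM in parental cells and at 167.5, 175.1 and 153.5 CPM in p85β KR-AA cells, and HNRNPF at 468.5, 551.2 and 481.0 CPM and at 213.2, 213.4 and 212.7 CPM. In CPM, HNRNPF, the most abundant of them, stayed above HNRNPH1 in every library. Per kilobase the p85β KR-AA libraries had HNRNPF at 81.49, 81.53 and 81.27 CPM and HNRNPH1 at 79.25, 82.81 and 72.61 CPM. On that scale HNRNPH1 was the higher gene in p85β KR-AA replicate 2. The log2 ratio of HNRNPH1 to HNRNPF counts, chosen after seeing the values, went from −2.93 ± 0.30 to −0.37 ± 0.094. HNRNPH1 and HNRNPH2 are nearly identical, so reads could be split between them. HNRNPH2 also shares its strand with the readthrough gene RPL36A-HNRNPH2, and with both summed its log2 fold change was 0.41 (edgeR adjusted p = 0.0308).

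The hnRNP A/B genes went both ways as well. HNRNPA2B1, which binds UAG and GG-containing RNA, rose (1.01 ± 0.13, edgeR adjusted p = 9.07e-06), and was at −0.78 with length and GC offsets. HNRNPAB, HNRNPA0 and HNRNPA1L2 fell (−1.47 ± 0.12, −1.36 ± 0.12 and −0.92 ± 0.21, edgeR adjusted p = 1.28e-07, 4.28e-07 and 0.0012), the last of them not on library totals, where it was at 0.0069. HNRNPA3 (0.20 ± 0.13) and HNRNPA1L3 (0.34 ± 0.23) were not called (edgeR adjusted p = 0.162 and 0.188). HNRNPA1L2 and HNRNPA1L3 are copies of HNRNPA1 at 2.60 to 5.68 CPM and could share its reads, so their values are uncertain. HNRNPA2B1 overlaps CBX3 and HNRNPA3 overlaps NFE2L2 on the opposite strand, with mean counts of 1277.0 and 76.0 in parental and 2479.6 and 1177.7 in p85β KR-AA cells.

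Of the remaining hnRNP genes, HNRNPK, which binds cytidine tracts, rose by 0.42 ± 0.13 (edgeR adjusted p = 0.00837), was at −1.03 with length and GC offsets, and lost its call in 5 of the 6 fits with 1 library left out. HNRNPM, which binds GU-rich RNA, fell (−0.87 ± 0.13, edgeR adjusted p = 5.38e-05) and was at 0.043 on library totals. HNRNPR (−0.30 ± 0.15) and HNRNPUL2 (−0.50 ± 0.21) were not called (edgeR adjusted p = 0.079 and 0.0406), and HNRNPUL2 passed without parental replicate 2. HNRNPUL2 shares its strand with the readthrough gene HNRNPUL2-BSCL2, and with both summed it fell (−0.70, edgeR adjusted p = 0.000453).

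The direction of these genes went with the base composition of their transcripts. The 11 that rose were 36.6% to 42.9% GC with a median of 39.9%, the 11 that fell were 39.8% to 55.1% with a median of 46.6%, and the 16 not called were 39.4% to 59.4%. Across the 38 genes, which share libraries and depth, log2 fold change had a Pearson r of −0.57 and a Spearman rho of −0.59 with GC content. The same held over the 15902 tested genes with a GC value, with r of −0.48 and rho of −0.58. With log2 length, r was 0.19 and rho 0.070 for the 38, and 0.38 and 0.45 for all genes. The 38 genes had a lower median GC content (43.4%) than all tested genes (50.0%). The cause of this relation was not tested. Calls were compared over 6 fits, some of which share a scaling. In edgeR these used TMM, TMM with a replicate block and robust moderation, library totals, DESeq2 size factors, and length and GC offsets. The other was DESeq2 itself. PTBP3 and TRA2A were called higher in all 6, and HNRNPA0, HNRNPAB, HNRNPC and HNRNPL were called lower in all 6. Of the 38 genes, 11 were called higher in some and lower in others. These counts over the 6 fits were not made for all tested genes, so they do not show whether the 38 are unusual.

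**Figure D4:**
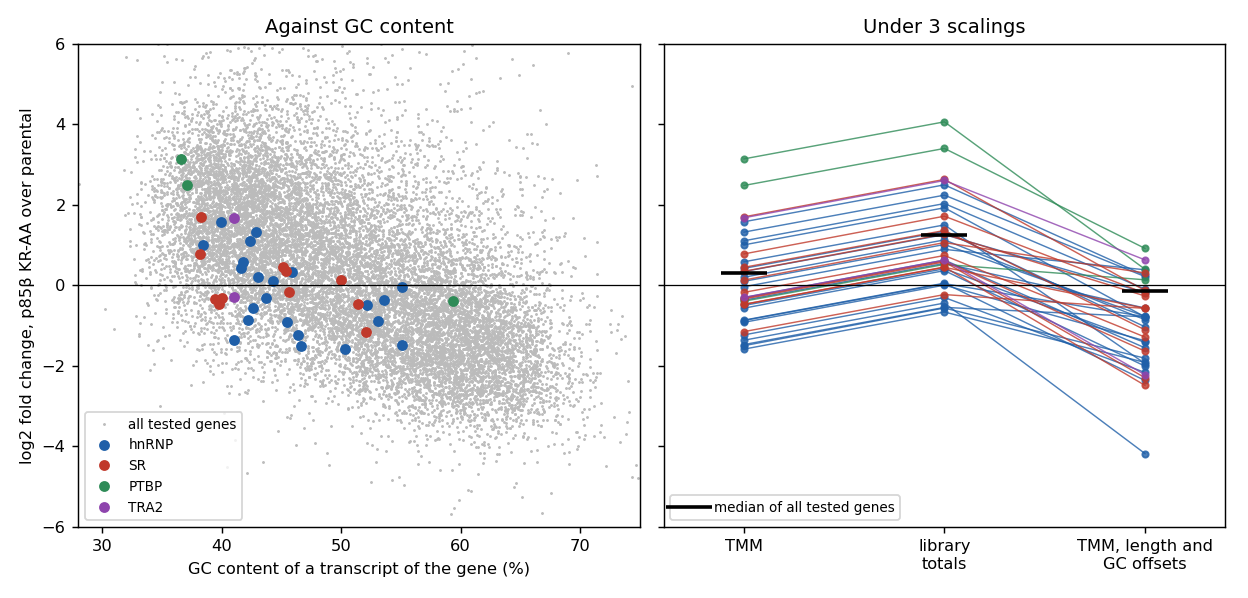
Left, log2 fold change (vertical axis, p85β KR-AA over parental, TMM scale) against GC content in percent for all tested genes (small grey points, those outside the axes are not drawn) and for the tested genes by family; right, the log2 fold change of each of the 38 genes under 3 scalings, with black bars at the median of all tested genes. Values fall with GC content in both sets (r = −0.57 and −0.48), and the median of all genes moves from 0.32 with TMM to 1.241 with library totals and −0.15 with length and GC offsets. The label of the third scaling names TMM, but there the offsets take the place of the TMM factors.

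The genes that act on or beside SR proteins and hnRNPs were described from fixed lists by the same calls, where 28.6% of all tested genes were higher and 17.6% lower at 3-fold. With length and GC offsets 2121 of 15902 genes were higher and 1928 lower at 3-fold. The counts on library totals were 7052 higher and 973 lower of 16059. Of 10 kinases and import receptors of SR proteins, 6 rose by at least 3-fold and 0 fell, with a median log2 fold change of 1.73. DYRK1A (3.25 ± 0.33), the kinase CLK1 (3.003 ± 0.30) and the import receptor TNPO1 (2.80 ± 0.25) had the largest changes (edgeR adjusted p = 1.11e-06, 1.15e-06 and 3.64e-07). With length and GC offsets 2 of the 10 passed. Of 11 SR-related coactivators, 7 rose and 1 fell at 3-fold, with a median of 1.89. SON (3.03 ± 0.23), PNN (2.85 ± 0.22) and SCAF8 (2.80 ± 0.33) rose and SCAF1 fell (−1.92 ± 0.13; edgeR adjusted p = 1.01e-07, 9.68e-08, 5.31e-06 and 2.55e-08), and with the offsets 0 of the 11 passed in either direction.

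The list of 25 core factors of the U1 and U2 snRNPs and of 3′ splice site recognition had 1 gene higher and 12 lower at 3-fold, and a median of −1.57. SNRPB (−3.09 ± 0.15), PHF5A (−2.75 ± 0.14) and SF3B5 (−2.61 ± 0.14) fell, and SF3B1 rose (2.72 ± 0.23; edgeR adjusted p = 5.84e-09, 5.96e-09, 8.53e-09 and 2.02e-07). On library totals 2 were higher and 4 lower, and with length and GC offsets 0 were higher and 8 lower. These genes are short, with a median length of 1560 bases against 2796 for all tested genes, whereas that of the SR-related list was 4935.

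Of 36 other splicing regulators, 29 were tested, 11 rose and 4 fell at 3-fold, and the median was 1.14. QKI (4.26 ± 0.22), PCBP3 (3.62 ± 0.24) and MBNL2 (3.40 ± 0.27) rose, and PCBP4 (−2.14 ± 0.14), RBM38 (−2.14 ± 0.14) and RALY (−2.09 ± 0.12) fell (edgeR adjusted p from 7.14e-09 to 1.23e-07). With the offsets 4 rose and 4 fell by 3-fold. Of 10 factors of nonsense-mediated decay, 3 rose and 0 fell at 3-fold, with a median of 0.71. SMG1 rose (4.18 ± 0.21, edgeR adjusted p = 5.96e-09), and with the offsets 0 of the 10 rose by 3-fold. The median of the 38 SR and hnRNP genes lay between that of the core snRNP list and those of the other lists on the TMM scale.

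**Figure D5:**
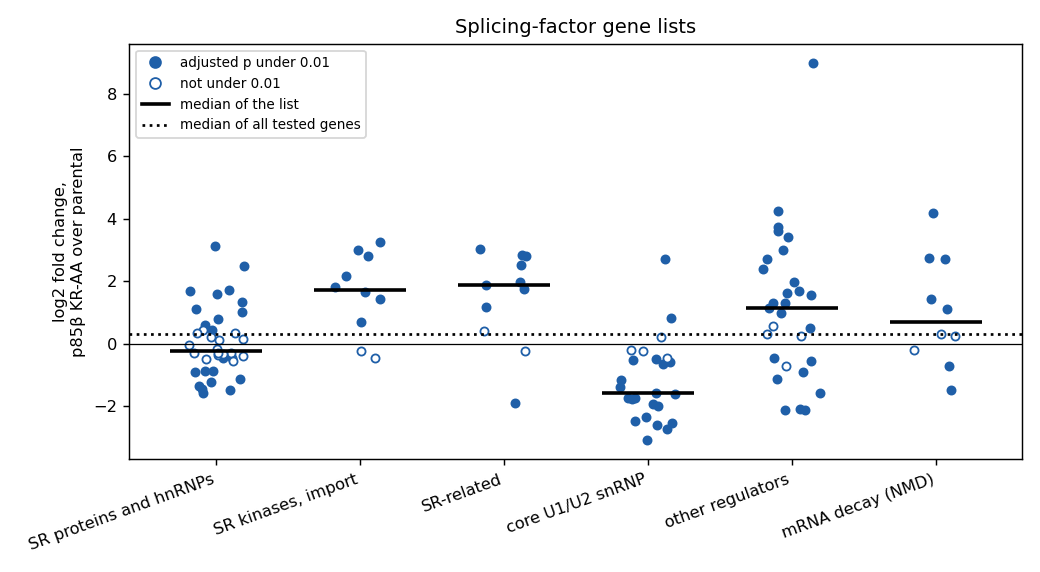
Log2 fold change (vertical axis, p85β KR-AA over parental, TMM scale) of each tested gene of the SR and hnRNP families and of 5 related lists, with black bars at each list's median and a dotted line at the median of all tested genes (0.32). Medians are −0.24 for the SR and hnRNP genes, 1.73, 1.89, −1.57, 1.14 and 0.71 from left to right for the others. At 3-fold, length and GC offsets leave 2, 0, 0, 4 and 0 genes of the 5 lists higher and 0, 0, 8, 4 and 0 lower.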

How the data were processed

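The table that the authors deposited holds expected counts, which need not be whole and are not normalized, for each Ensembl gene and library, and a gene length. Per the study's methods, TRIzol total RNA was sequenced in read pairs, which were trimmed with SeqPrep and Sickle, and changes were called at 3-fold and an adjusted p under 0.01. The submitters' processing notes name HISAT2 2.1.0, RSEM 1.3.1, DESeq2 1.24.0 and the build hg18, with no role given.

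Counts were rounded, although the design assumed whole counts, and tested with edgeR 4.0.16 under R 4.3.3. Low counts were removed by filterByExpr (count 10, total 15), libraries were scaled by TMM, and the quasi-likelihood test had no covariate and Benjamini-Hochberg adjustment. Ratios used counts plus 0.5 and an exact permutation test. Symbols, overlaps and GC content came from GENCODE release 44 lifted to GRCh37, by Ensembl identifier, with the GC of the transcript nearest in length to the deposited gene length. Offsets were splines with 5 degrees of freedom per library for length and GC content, used in place of the TMM factors. They remove any relation with length and GC content whatever its source. Alternatives were DESeq2 1.42.0, its size factors, library totals, other filters, robust moderation, a replicate block and each library left out. The code was tested on simulated data.

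The genes and lists were chosen with earlier results of these data known. Values per library were given for genes past 3-fold, those of the 8 ratios and the most abundant of each family per kilobase, and those of HNRNPA1, HNRNPF and HNRNPH1 were added after their values were seen. Genes of the related lists were named by the largest 3 changes past 3-fold in each direction, if the average log2 CPM was 3 or more. A gene that this rule names is not reported here.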

Additional observations from a re-analysis of the deposited data

How the results depend on the processing

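Robust moderation changed no call among the 38 genes. DESeq2 and its size factors in edgeR changed 4 and 3 calls, put HNRNPA1 at −0.019, and each gave 3 genes lower at 3-fold and 1 lower nonsense-mediated decay factor. Without a filter 4 calls changed and HNRNPDL was at 0.017. With at least 10 counts in every library, where PTBP2 was not tested, 4 calls changed, the median was −0.10, HNRNPDL was at 0.16 and SRSF2 at 0.022. Library totals gave 9 genes higher at 3-fold, 23 higher and 4 lower at any size, and a median of 0.69. Among all 16059 tested genes they gave 7052 higher and 973 lower at 3-fold. HNRNPA1L2 (0.0069), HNRNPD (0.055), HNRNPDL (0.89), HNRNPLL (0.37), HNRNPM (0.043), HNRNPR (0.63), HNRNPUL1 (0.55), HNRNPUL2 (0.41), PTBP1 (0.52), SRSF2 (0.74), SRSF3 (0.58), SRSF4 (0.45), SRSF6 (0.46), SRSF7 (0.61) and TRA2B (0.63) turned positive. At 3-fold library totals gave 0 lower SR-related genes, 2 higher and 4 lower core snRNP genes, 0 lower other regulators and 5 higher decay factors. This follows from the shift of all genes by 0.92.

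Length and GC offsets gave 0 higher and 11 lower at 3-fold, 2 higher and 25 lower at any size, and a median of −0.78. Among all 15902 genes tested with them, 2121 were higher and 1928 lower at 3-fold. HNRNPA1 (−0.77), HNRNPA1L3 (−0.18), HNRNPA2B1 (−0.78), HNRNPA3 (−0.85), HNRNPH2 (−0.091), HNRNPK (−1.03), HNRNPU (−1.94), SRSF10 (−0.20), SRSF11 (−0.13), SRSF5 (−0.26) and SRSF8 (−1.11) turned negative, and HNRNPDL (0.39) and PTBP1 (0.14) positive. At 3-fold, 2 kinases or import receptors, 0 SR-related genes, 0 core snRNP genes, 4 other regulators and 0 decay factors were higher. In the same order, 0, 0, 8, 4 and 0 were lower. Ratio differences were 0.68 for PTBP2/PTBP1, 0.27 for PTBP3/PTBP1, 2.85 for TRA2A/TRA2B, −0.085 for HNRNPLL/HNRNPL, 2.72 for HNRNPDL/HNRNPD, 1.39 for HNRNPUL1/HNRNPU, 0.65 for SRSF7/SRSF3 and −2.22 for SRSF6/SRSF5. The cause was not tested.

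With overlapping same-strand genes summed, chosen after seeing the data, 1 gene was lower at 3-fold (HNRNPL, −1.60). Leaving out 1 library at a time gave 3 to 5 genes higher and 0 to 2 lower at 3-fold (2 without parental replicate 3, 1 each without parental replicate 1 or 2 or p85β KR-AA replicate 3), 9 to 10 higher and 9 to 15 lower at any size, 0 to 1 lower decay factors (1 without parental replicate 2), SRSF7/SRSF3 from −0.099 to 0.10, HNRNPA1 from −0.097 to 0.24, HNRNPDL from −0.14 to 0.073 and SRSF1 from −0.010 to 0.24. PTBP3, PTBP2, SRSF11 and TRA2A kept an adjusted p under 0.01 in all 6 such fits, with SRSF11 at 1.57 without parental replicate 1 and TRA2A at 1.58 without p85β KR-AA replicate 2, just under 3-fold.

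Deviations of same-numbered libraries from their group means had r of −0.20, 0.18 and −0.058. With 3 libraries per group these values cannot decide whether the numbers pair the samples. With the replicate block and robust moderation, 5 genes were higher and 0 lower at 3-fold, 10 higher and 12 lower at any size, and the median was −0.23.

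At 1 count per 0.0273 to 0.0728 CPM, depth limited PTBP2, with 8 counts per parental library, and SRSF12, which was not tested.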
